A study of Drosophila melanogaster with 3 samples.

Results

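Zuc, Gasz, Daed, Mino, Papi, Nbr and Hen1 are factors that cut, hold and finish piRNAs, the small RNAs that guide Piwi proteins to transposons. Their 7 genes (zuc, Gasz, daed, mino, papi, Nbr and Hen1) were chosen by name, and each was read from its single-gene probe set on the array, as 7 of 11982 genes so measured. All 7 symbols matched the RefSeq gene table of assembly Release 6 plus ISO1 MT, and each gene had exactly 1 probe set, so no choice between probe sets was needed. RNA came from 1 group of 3 samples of OSS cells, an untreated, exponentially growing somatic line of Drosophila melanogaster, derived from ovarian follicle stem cells according to the labels. Whether the samples were separate cultures is not stated, so SDs measure only the spread between these arrays, which may be technical. The p-values carry this limit too. Where all arrays gave the same value, the gene had no spread of its own. Its p-value then rests on the spread that the test takes from the genes as a whole. With 1 condition, the level of each gene was set against background and not against another cell state.

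In somatic ovarian cells, long single-stranded precursor RNAs are brought to the surface of mitochondria, where a nuclease anchored in the outer membrane cuts them into stretches that Piwi takes up. The new 3′ end of the Piwi-bound RNA can then be shortened by an exonuclease and is sealed by a methyl group on the last ribose, which protects small RNAs from decay. In the fly, the primary pathway of the somatic cells supplies Piwi without the ping-pong cycle of the germline.

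All 7 genes were above background, where 46.6% of the 11982 genes tested were, and 0 of 7 were below it, where 50.1% of all genes were. They were not alike in how far above it they lay. The genes for the acyltransferase Mino, the Tudor protein Papi and the trimmer Nbr were over 1 log2 unit above background. The gene for the scaffold protein Gasz stood at about that distance, and those for the nuclease Zuc, the scaffold protein Daed and the methyltransferase Hen1 lay within 0.48 log2 units of it. Background was 2.49 on the log2 scale, the 95th percentile of the means of 112 odorant and gustatory receptor genes, taken as unused in these cells. A gene was called above it at an adjusted p under 0.05 (limma, one-sided, Benjamini-Hochberg over all genes). The median distance from background was 1.04 log2 units over the 7 genes and -0.02 over all genes. Probe sets differ in affinity, so these distances do not rank the genes by transcript. In RNA from a whole culture, fewer cells with a transcript and less of it per cell cannot be told apart.

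**Figure D1:**
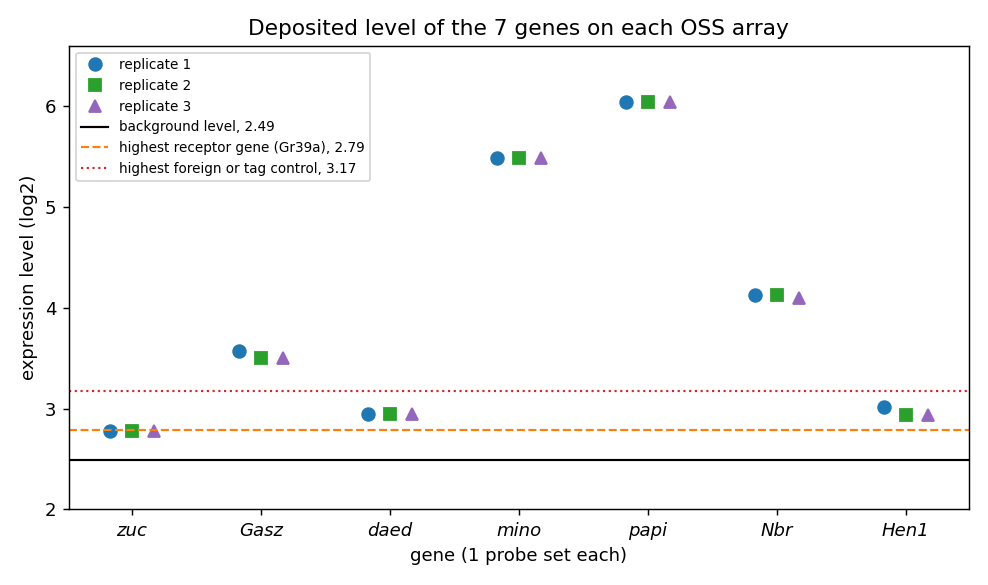
Deposited expression level (log2, vertical axis) of the 7 genes on each of the 3 OSS arrays (1 point per array), with 3 levels drawn as lines. The points of zuc lie just under the line of the highest receptor gene, those of daed and Hen1 between it and the line of the highest foreign or tag control, and those of Gasz, Nbr, mino and papi over all 3 lines.

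The endonuclease gene zuc (CG12314, chromosome arm 2L) encodes a phospholipase D family protein of the outer mitochondrial membrane that cuts piRNA precursors. Its level was 2.78 on replicate 1, 2.78 on replicate 2 and 2.78 on replicate 3. These values were identical to every deposited digit and lay 0.29 log2 units above background (limma, adjusted p = 5.6e-06). The highest receptor gene of the background list, Gr39a, measured 2.79, and zuc lay under it. The highest control probe set for foreign sequences and tags measured 3.17, also over zuc. A spread taken from genes with 3 different values, in place of the SD of 0, left zuc uncalled (limma, adjusted p = 0.064).

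Gasz (CG2183, arm 2R) and daed (CG10880, arm 2L) encode SAM-domain proteins anchored in the outer mitochondrial membrane, which in the fly bind each other and hold the helicase Armi there. Gasz measured 3.57 on replicate 1, 3.50 on replicate 2 and 3.50 on replicate 3. Replicate 1 was the highest and the other two were identical. The mean of 3.52 ± 0.041 (SD, n = 3) lay 1.04 log2 units above background (limma, adjusted p = 0.00013). The distance sat at the edge of the stricter level, set 1 log2 unit above background at 3.49, and Gasz was not called above that (limma, adjusted p = 0.36). The partner gene daed measured 2.94 on each of replicates 1, 2 and 3. Its identical values lay 0.46 log2 units above background (limma, adjusted p = 2.1e-06). They were over Gr39a by 0.15 log2 units and under the highest foreign or tag control by 0.23 log2 units.

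The gene mino (CG5508, arm 3R) encodes a glycerol-3-phosphate acyltransferase of the outer mitochondrial membrane, an enzyme of the first step of glycerolipid synthesis that is also needed for primary piRNAs in fly ovarian somatic cells. It measured 5.49 on each of replicates 1, 2 and 3, which was 3.00 log2 units above background (limma, adjusted p = 1.7e-07). The 3 arrays did not differ in any deposited digit. RefSeq lists 4 transcripts of mino, and its probe set is of the type designed against several transcripts of 1 gene.

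The gene papi (CG7082, arm 2L) encodes a protein with KH and Tudor domains at the mitochondrial surface. The Tudor domain binds methylated arginines of Piwi proteins, and in silkworm the protein assists the trimming of piRNA 3′ ends. It measured 6.05 on each of replicates 1, 2 and 3, again without a difference between arrays. This lay 3.56 log2 units above background (limma, adjusted p = 1.7e-07). RefSeq lists 4 transcripts here too. The probe set of papi is of a type that can share sequence with other transcripts, and no other probe set of the gene was available to set beside it.

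Nbr and Hen1 act on the 3′ end. Nbr (CG9247, arm 2L) encodes an exonuclease that shortens Argonaute-bound microRNAs and piRNAs in the fly. It measured 4.13 on replicate 1, 4.13 on replicate 2 and 4.10 on replicate 3. Replicate 3 was the lowest and the other two were identical. The mean of 4.12 ± 0.017 (SD, n = 3) lay 1.63 log2 units above background (limma, adjusted p = 7.7e-06) and passed the stricter level as well (limma, adjusted p = 0.00015). Hen1 (CG12367, arm 2R) encodes the methyltransferase that modifies the last ribose of piRNAs and siRNAs. It measured 3.02 on replicate 1, 2.94 on replicate 2 and 2.94 on replicate 3. Replicate 1 was again the highest, and the other two were identical. The mean of 2.96 ± 0.047 (SD, n = 3) lay 0.48 log2 units above background (limma, adjusted p = 0.00092), over Gr39a by 0.17 log2 units and under the highest foreign or tag control by 0.21 log2 units.

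The number of genes called depended on the level set. At the stricter level mino, papi and Nbr remained, 3 of 7 against 25.3% of all genes. With the highest receptor gene as level, 6 of 7 were above against 37.1%, and zuc was under it. With the highest foreign or tag control as level, 4 of 7 were above against 30.0% of all genes, namely Gasz, mino, papi and Nbr. With the spread of genes with 3 different values, 6 of 7 were above against 39.8%, zuc being the exception. When identical values were given the median SD of genes that differed between arrays, all 7 were above against 42.9% (limma, adjusted p from 3.8e-05 for papi to 0.013 for zuc). Leaving out 1 array at a time also left all 7 above. Calls below background, of genes in the lists described further on, were less stable. With the median SD in place of 0, limma called 0 of 11982 genes below background (433 at an unadjusted p under 0.05), and with the spread of genes with 3 different values 0 (0 at an unadjusted p under 0.05).

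**Figure D2:**
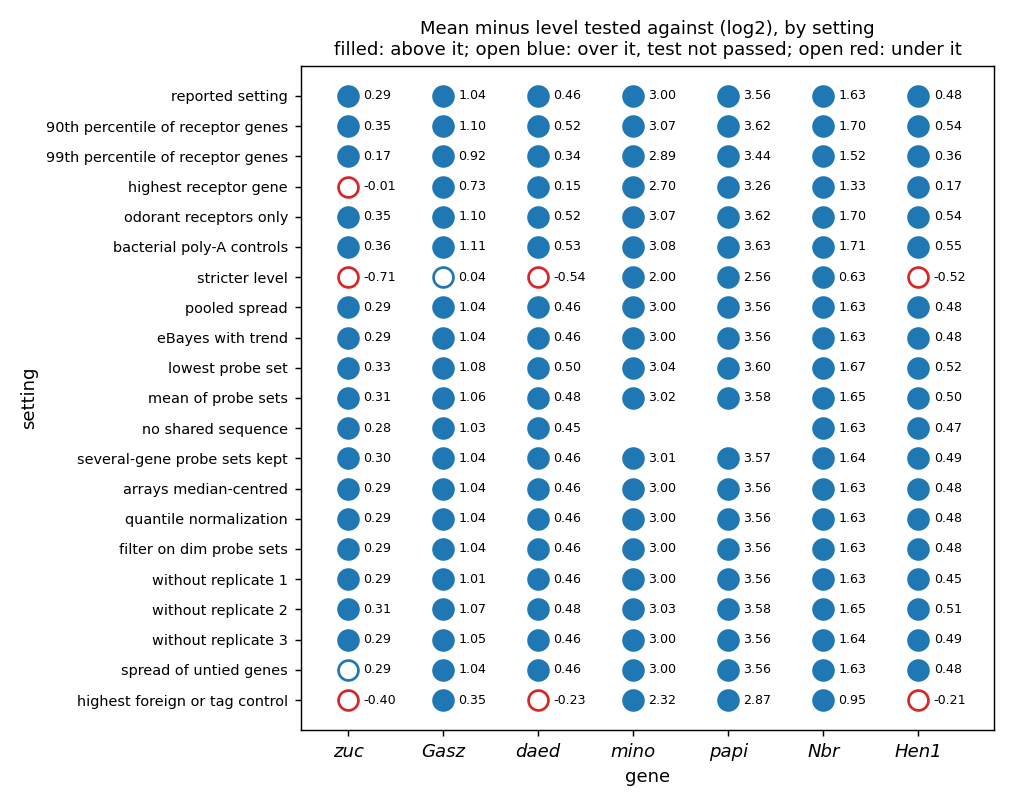
Each gene's mean minus the level tested against (log2, number beside each point), for the reported setting and 20 alternatives (rows). Filled points passed the test, open blue points were over the level without passing and open red points were under it. Points of mino, papi and Nbr are filled wherever they were measured, and without probe sets of shared sequence mino and papi have no point.

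Repeated values set how far the SDs can be read. Values were identical on all 3 arrays for zuc, daed, mino and papi, and on 2 arrays for Gasz, Nbr and Hen1, so 0 of the 7 genes had 3 different values. Of the 5587 genes above background, 29.2% were identical on all 3 arrays and 29.0% on 2. Repeats were common near background and rare at high levels. Among 8154 genes within 0.5 log2 units of zuc, a window that reaches the lowest values of the arrays, 79.9% were identical on all 3 arrays, and among 1441 genes from 2.5 to 3 on the log2 scale, which include zuc, daed and Hen1, 52.8% were. For mino the share was 11.7% of 744 genes and for papi 7.4% of 568 genes. Genes near papi with 3 different values had a median SD of 0.24 log2 units (n = 406), and those near mino also 0.24 (n = 463). An SD of 0 over identical deposited values, as in papi and mino, understates the measurement error. For Gasz the SD of 0.041 stood beside a median of 0.17 (n = 517), for Nbr 0.017 beside 0.20 (n = 574) and for Hen1 0.047 beside 0.12 (n = 411).

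**Figure D3:**
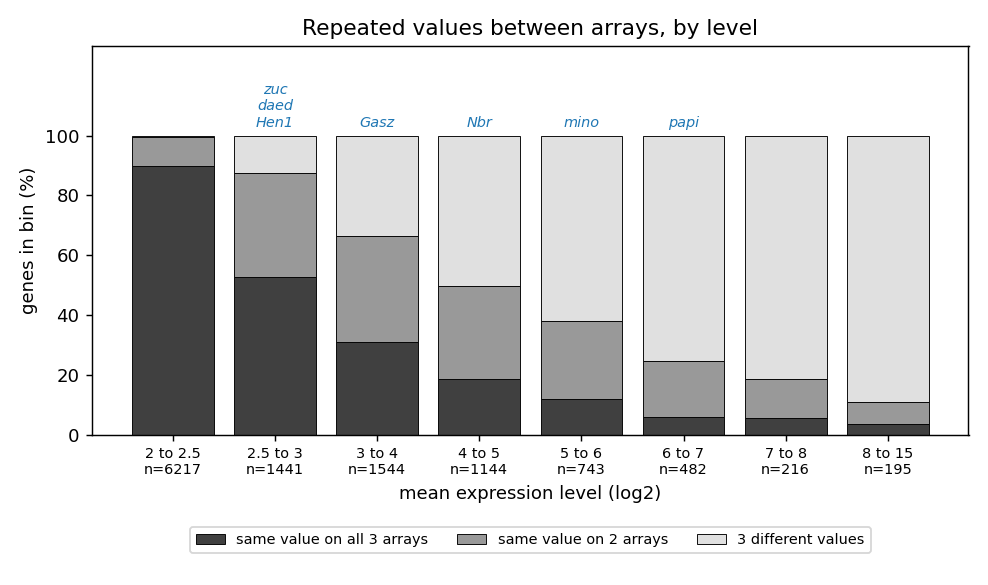
Share of genes (%, vertical axis) whose deposited values were the same on all 3 arrays, the same on 2 arrays or different on all, by mean level (log2, horizontal axis, n genes per bin). The share identical on all 3 falls with the level, to 11.8% at 5 to 6, where mino lies, and 6.0% at 6 to 7, where papi lies.

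In the 3 genes with a difference between arrays, the odd array was replicate 1 in Gasz and Hen1, where it was higher, and replicate 3 in Nbr, where it was lower. Of 1620 genes above background with 2 identical values, replicate 1 was the odd array and higher in 337, and replicate 3 was odd and lower in 178. The commonest pattern was another, with replicate 3 odd and higher in 514. Among 62 genes of the lists described below, the patterns most like that of Gasz after centring were those of CLS, which encodes cardiolipin synthase, at a Euclidean distance of 0.0058 log2 units over the 3 arrays, and of twin, a deadenylase gene, at 0.020. For Hen1 they were the same genes, twin at 0.012 and CLS at 0.014. For Nbr the nearest was the exonuclease gene Snp at 0.015. BoYb followed at 0.025, but it had identical values throughout. Every list gene with identical values has this same distance, and BoYb is named only because it was listed first. With 3 arrays and differences under 0.1 log2 units, these distances only describe the deposited values.

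The counts of the lists that follow stand beside 46.6% of all genes above background, 50.1% below it and 25.3% above the stricter level. Partner factors of the same pathway were measured for 7 of 8 listed genes, and Hsp83 was not analysed here. All 7 were above background (limma), and 5 were above at the stricter level. The helicase gene armi, whose protein Gasz and Daed hold at mitochondria, measured 7.45, 6.96 and 8.05 on replicates 1, 2 and 3, and piwi 6.44, 5.98 and 6.98. Both were lowest on replicate 2 and highest on replicate 3. The same order occurred in genes of other lists, among them Tom20, Art1 and PAN2, so it was not particular to the pathway. The partner genes fs(1)Yb and shu were highest on replicate 1. Of the 7 genes, Gasz and Hen1 were highest on replicate 1 and Nbr was lowest on replicate 3, unlike armi and piwi. These differences were under 0.1 log2 units. No order can be read from zuc, daed, mino and papi, whose values were identical. The Tudor-domain gene vret measured 5.66 ± 0.13 (SD, n = 3), fs(1)Yb, which encodes the core protein of Yb bodies, 4.55 ± 0.32 and the co-chaperone gene shu 3.87 ± 0.086. The paralogs of fs(1)Yb, SoYb at 2.65 ± 0.0027 and BoYb at 2.63 on every array were, like zuc, under Gr39a, and both lost their call with the spread of genes with 3 different values (limma, adjusted p = 0.31 and 0.39).

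Genes of the mitochondrial outer membrane and of mitochondrial fusion, fission and transport gave the setting in which Zuc, Gasz, Daed, Mino and Papi sit. All 12 measured genes of this list were above background and 9 at the stricter level, with a median distance of 3.53 log2 units. The import receptor gene Tom20 measured 8.13 ± 0.058 (SD, n = 3) and the fission gene Fis1 7.97 ± 0.14. The value of Fis1 came from its highest probe set, and its probe sets disagreed. Their mean was 5.28, and the lowest lay close to background, though still above it (limma, adjusted p = 0.015). The list's lowest values were those of the import receptor gene Tom70 at 3.49 ± 0.22 and the kinase gene Pink1 at 3.47 ± 0.048. Sam50 was not analysed here.

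Of 16 measured genes of glycerolipid synthesis, the pathway that Mino's enzyme activity feeds, 13 were above background, 3 were below and 9 were above at the stricter level. The phosphotransferase gene bbc measured 5.28 on every array and CLS 5.04 ± 0.037 (SD, n = 3). Agpat1 and Agpat4, for acyltransferases of the step after Mino, lay at the lowest deposited value of 2.39 on every array. Pcyt2 also measured 2.39, within 0.005 of that value and not identical to it. The other acyltransferase genes Agpat3, at 4.91 ± 0.23, and Agpat2, at 3.74 ± 0.028, were above background (limma, adjusted p = 0.00090 and 3.8e-05), as was Gpat4, for another glycerol-3-phosphate acyltransferase, at 3.74 ± 0.26 (limma, adjusted p = 0.0050). These 3 genes and Pcyt2 were named after their values were seen.

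All 13 genes for 3′ to 5′ exonucleases and their cofactors, the enzyme class of Nbr, were above background and 9 at the stricter level. The highest values of the list were those of PAN2, a deadenylase gene, at 5.59 ± 0.35 (SD, n = 3), and WRNexo at 4.90 ± 0.27. The lowest were those of Dis3l2 at 3.01 ± 0.22 and the nuclear exosome gene Rrp6 at 2.89 ± 0.018. Without replicate 1, 11 of the 13 were above background, and Dis3l2 was among those not called (limma, adjusted p = 0.10).

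Genes for methylation of RNA ribose, the reaction of Hen1, were above background in 5 of 5 measured cases of 8 listed, and 4 passed the stricter level. The nucleolar genes Fib and Nop56 measured 7.66 ± 0.065 and 6.72 ± 0.16 (SD, n = 3). The cap methyltransferase gene aft measured 5.00 ± 0.054 and the tRNA methyltransferase gene CG7009 2.92 on every array. CG5220, nop5 and hoip were not analysed here.

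Of 9 measured arginine methyltransferase genes and cofactors, 6 were above background, 3 below and 2 above at the stricter level, the last a share close to the 25.3% of all genes. The list includes the gene for Csul, which methylates Piwi proteins. Whether the other enzymes place marks that Papi's Tudor domain binds was not tested. Art1 measured 6.65 ± 0.44 (SD, n = 3) and vls, the cofactor of the Piwi-protein methyltransferase Csul, 5.15 ± 0.18. Art2 and Art9 lay at 2.39 on every array, and Art6 was below background at 2.42. The enzyme gene csul itself measured 3.17 on replicate 1, 3.16 on replicate 2 and 3.56 on replicate 3. It was above background (limma, adjusted p = 0.011) and not above the stricter level. Art6 and csul were named after their values were seen.

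**Figure D4:**
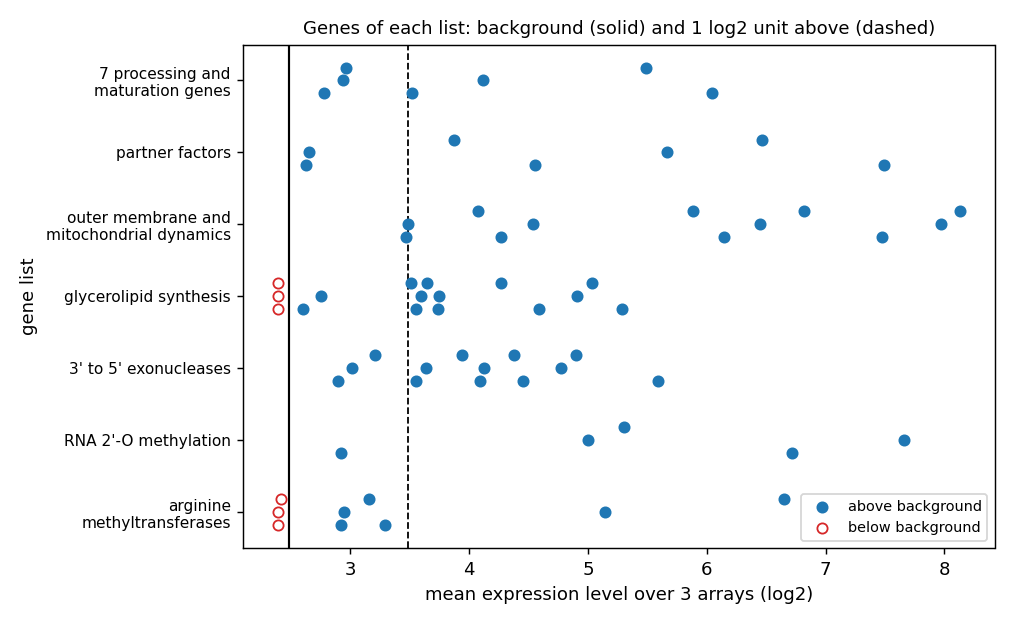
Mean expression level over 3 arrays (log2, horizontal axis) of the 7 processing and maturation genes and of each list (rows, 1 point per gene). Filled points were above background and open points below it; of the rows, glycerolipid synthesis and the arginine methyltransferases hold 3 open points each.

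In the RefSeq annotation 5 of the 7 genes overlap another protein-coding gene. The mino locus overlaps nenya, which measured 2.41 on every array and was below background. The mino locus also overlaps NSD, which measured 3.80 on every array. The zuc locus overlaps CG34163, which was not analysed here. The daed locus overlaps CG34174, at 2.57 on replicates 1 and 2 and 3.09 on replicate 3, which was unresolved (limma, adjusted p = 0.20). The Nbr locus overlaps Pld3, a gene of the phospholipase D family like zuc, at 2.87 ± 0.077 (SD, n = 3), and the Hen1 locus overlaps bsd, at 4.40 ± 0.084. Which bases the probes cover was not analysed here, so a share of signal from an overlapping gene was not tested.

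The cell type was checked by markers. Of 8 measured follicle and somatic ovary genes, 5 were above background, among them the transcription factor genes tj at 6.83 ± 0.69 and zfh1 at 5.10 ± 0.25 (SD, n = 3), while cas and slbo lay at the lowest value; Fas3, which the labels name as the line's marker, was not analysed here. Of 8 germline genes, 7 were below background, with vas and AGO3 at 2.39 on every array, and aub was above it at 2.79. Hemocyte genes were above in 3 of 6 cases, close to the 46.6% of all genes, with Pxn at 4.43 ± 0.27 (SD, n = 3), which was above the stricter level too, crq at 3.54 ± 0.062 and Hml at 2.39. Neuronal genes were above in 1 of 4 (elav at 2.72), muscle genes in 1 of 4 and fat body and gut genes in 0 of 5. Pearson correlations between arrays were 0.995, 0.988 and 0.986 over 18952 probe sets.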

How the data were processed

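RNA of 3 OSS samples was hybridised to Affymetrix expression arrays. The authors deposited log2 expression levels per probe set, made from scanner files with custom scripts per the labels; the summary method is not given in the sources used here, and base 2 was inferred from the range (2.39 to 14.75). Values were used as deposited. Of 18952 probe sets, 13647 carried 1 gene in the platform annotation and 402 several, which were left out. Genes with several probe sets took the highest mean. Each of 11982 genes was tested against background by an intercept-only fit with eBayes (limma 3.58.1, R 4.3.3). The test was run on data simulated with the SDs of genes with 3 different values. That check did not cover identical values. eBayes is unreliable here, since an SD of 0 was the commonest value. Arrays give no counts, and their number limits the precision.

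Members and lists were chosen with earlier results of these data known. Genes named were the 7 members, the partner factors, the 2 highest and 2 lowest of each other list, the 2 list genes most like each member, the highest receptor gene, overlapping genes and 6 markers; cas, slbo, aub, Pxn and crq were named after their values were seen. Alternatives concerned the background level, spread, probe sets, normalization, a filter and single arrays. No sequences are shown.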

Additional observations from a re-analysis of the deposited data

How the results depend on the processing

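The spread of genes with 3 different values and the level of the highest foreign or tag control were chosen after the data were seen, and 18 further alternatives were fixed earlier. No paired analysis was possible because the study has 1 group. Of 138 values of the 7 genes under alternatives, 129 kept their direction and side of the threshold. The count of 7 genes above background was 3 at the stricter level and 4 with the highest foreign or tag control. Over all genes these counts were 3028 and 3597, against 5587, and for the arginine methyltransferases 2 and 2, against 6. Without probe sets of shared sequence, zuc, Gasz, daed, Nbr and Hen1 stayed above background. That setting also drops probe sets designed against several transcripts of 1 gene, and mino and papi were then not measured. In the lists, the counts were 6 outer membrane genes, 5 glycerolipid genes and 7 exonuclease genes, of 6, 6 and 9 then measured. The exonuclease genes prage and Snp were still measured, at 2.39 with their remaining probe sets, and were not above. Leaving out 1 array left the count at 7, beside the counts over all genes given above.

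Named genes above background that came to lie under the level tested were zuc (2.78), SoYb (2.65), BoYb (2.63) and elav (2.72) with the highest receptor gene, the stricter level and the highest foreign or tag control, and so was Gr39a (2.79), which set the first of these levels. With the last 2 of these, daed (2.94), Hen1 (2.96), Dis3l2 (3.01), Rrp6 (2.89), CG7009 (2.92), aub (2.79) and Pld3 (2.87) did so too, and Pink1 (3.47) and csul (3.30) did at the stricter level. CG34174 (2.75), unresolved at the reported setting, was under all 3. With the lowest probe set, Gr39a, Snp and prage were at 2.39 and Pxn at 2.41, under the level. Art6 (2.42) was over the level with bacterial poly-A controls.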
